A study of Rattus norvegicus with 10 samples.

Results

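The fast troponins and fast myosin light chains, with skeletal actin and the proteins that anchor or accompany the filaments, were described across muscle taken from arthritic rats before and after acupuncture. The genes were chosen by name: Tnni2, Tnnc2, Tnnt3, Mylpf, Myl1, Actn3, Mybpc1, Mybpc2, Pvalb and Acta1. They make up 10 genes in 11 rows, since Myl1 has 2 transcripts, out of 17221 transcripts in the table. All 11 rows passed the filter on low values, which kept 10259 transcripts (59.6%).

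In striated muscle, myosin heads on the thick filament pull on actin in the thin filament. Calcium starts the pull by binding troponin C, which releases the block that troponin I holds on actin, while troponin T ties the complex to tropomyosin. Myosin carries a regulatory and an essential light chain, and myosin binding protein C sits along the thick filament. Fast and slow fibres use different genes for most of these proteins, so the ratio of a fast gene to its slow partner tracks fibre type in muscle. The name fast does not hold for the whole group. Mybpc1 encodes the isoform of myosin binding protein C named for slow fibres and Acta1 the actin of skeletal muscle in general. Actn3 belongs to the Z-disc, and Pvalb is a soluble calcium buffer of fast fibres.

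The animals of all 10 libraries were female Wistar rats in which immunisation with bovine type II collagen had raised collagen-induced arthritis, used to model rheumatoid arthritis. The RA_0 libraries precede any therapy. Acupuncture, in which a fine needle is inserted and twirled at points on the lower back and below the knee, had begun 1 h earlier for AP_1h and 34 days earlier for AP_34d. PLA_1h and PLA_34d match these times under placebo, per the study's methods a peritoneal injection of saline. The study gives it as the placebo for methotrexate, so it is not a sham of the needling. Each group had 2 libraries, no healthy animals were analysed here, and neither the age of the rats nor which muscle was taken is given in the sources used here, which place the tissue around the stimulated points and elsewhere call it dorsal. Per the study's methods the tissue was excised at sacrifice, so the groups hold different animals and no comparison follows an animal over time. The labels do not say whether replicates are separate animals, so p-values measure only the spread between these libraries.

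Library depth ran from 5371687 to 8899521 counted reads. The 11 rows took between 10.4% and 18.6% of the reads, and Acta1 alone took from 3.59% in AP_1h replicate 1 to 10.5% in RA_0 replicate 1. In AP_1h replicate 1 the 95% Wilson interval of the summed share was 10.4% to 10.5%, so counting error, the only error such an interval covers, is small beside the spread between libraries. Of the 11 rows, 9 stood among the 20 most abundant of the table. Levels are given as CPM, counts per 1000000 reads scaled by the authors with TMM factors, and are compared across libraries, never between genes, because transcript lengths were not used here. A ratio of 2 genes is likewise read only from library to library.

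**Figure D1:**
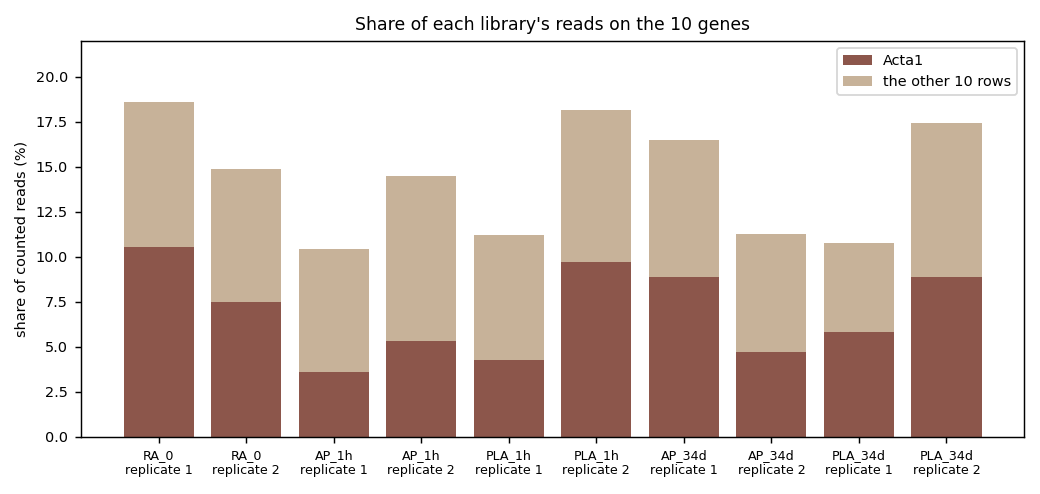
Share of counted reads (%, y axis) that fell on the 10 genes in each of the 10 libraries (x axis), with Acta1 in dark brown and the other 10 rows in light brown. The bars reach 18.6% in RA_0 replicate 1 and 10.4% in AP_1h replicate 1, and each group holds 1 taller and 1 shorter bar.

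The 3 fast troponins moved almost as 1 unit across the libraries. Tnnc2, the calcium sensor, stood at 15413 and 8702 CPM in RA_0, 8913 and 14080 CPM in AP_1h, 7652 and 14411 CPM in PLA_1h, 12522 and 8103 CPM in AP_34d, and 4441 and 12877 CPM in PLA_34d. Within each group 1 library was high and 1 low, so the 5 groups overlapped throughout. Tnni2, the inhibitory subunit, ranged from 3979 CPM in PLA_34d replicate 1 to 19389 CPM in RA_0 replicate 1. Tnnt3, the tropomyosin-binding subunit, ranged from 5364 to 20423 CPM between the same 2 libraries. For all 3 genes the order of the group means was RA_0, AP_1h, PLA_1h, AP_34d and PLA_34d from high to low, and for Tnnc2 these ran from 12058 ± 4745 CPM (SD, n = 2) to 8659 ± 5965 CPM (SD, n = 2). No neighbours in that order differed beyond their spread.

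The proportions between the troponin subunits varied far less than their levels. Tnnt3 over Tnnc2 lay between 1.2 and 1.33 in every library, a 1.11-fold range, whereas Tnnc2 itself spanned 3.47-fold. Tnni2 over Tnnc2 ranged from 0.789 in AP_34d replicate 2 to 1.26 in RA_0 replicate 1. The genes of troponin I and T are close neighbours on chromosome 1, with 57890 bases between the end of Tnni2 (rn4 chr1:202687630-202690172) and the start of Tnnt3 (chr1:202748063-202761965), while Tnnc2 lies on another chromosome (chr3:155807133-155808217).

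Mylpf, the fast regulatory light chain (named Myl11 in the newer annotation), stood at 18902 and 11118 CPM in RA_0, 7550 and 19401 CPM in AP_1h, 10274 and 17554 CPM in PLA_1h, 16918 and 6857 CPM in AP_34d, and 5336 and 17334 CPM in PLA_34d. The same library of each group was the higher one as for the troponins. Mylpf over Tnnc2 kept between 0.846 and 1.38.

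Myl1 makes both essential light chains of fast fibres from 1 gene, starting from 2 promoters 9897 bases apart. The long row (NM_001077656, rn4 chr9:65717098-65737576) starts at the distal promoter known for MLC1f, and the short row (NM_020104, chr9:65717098-65727679) at the internal promoter known for MLC3f. Both end at the same base, and the reads on the exons they share were dropped in counting, so the 2 rows hold only what tells them apart and their ratio is not an isoform share. The 250 bases before each start are shown because the 2 rows can be read apart only through these starts. They come from RefSeq, build GRCr8, minus strand, at chr9:75907697-75907946 for the long row and chr9:75897800-75898049 for the short row. Capitals mark TATA boxes (TATAAA), MEF2 sites and CArG boxes on either strand.
Myl1 long row: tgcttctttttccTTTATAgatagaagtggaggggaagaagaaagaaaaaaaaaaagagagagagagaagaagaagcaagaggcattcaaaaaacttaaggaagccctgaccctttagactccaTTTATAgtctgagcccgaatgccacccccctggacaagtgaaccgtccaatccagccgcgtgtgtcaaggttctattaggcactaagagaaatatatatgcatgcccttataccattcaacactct
Myl1 short row: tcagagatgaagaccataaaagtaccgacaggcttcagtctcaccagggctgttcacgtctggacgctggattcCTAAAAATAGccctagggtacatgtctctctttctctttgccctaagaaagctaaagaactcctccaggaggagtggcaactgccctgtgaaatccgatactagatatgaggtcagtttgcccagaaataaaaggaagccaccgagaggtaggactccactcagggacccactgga
The distal window held 2 matches to the TATA box, both on the opposite strand and the nearer 126 bases before the start, and no MEF2 site. The internal window held 1 MEF2 site, 176 bases before the start, and no match to TATAAA. MEF2 and serum response factor, which binds the CArG box, are factors known from muscle genes, but a match of letters is not a bound site.

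The long row of Myl1 stood at 1422 and 902 CPM in RA_0, 648 and 1889 CPM in AP_1h, 912 and 1820 CPM in PLA_1h, 1270 and 409 CPM in AP_34d, and 373 and 1469 CPM in PLA_34d. The short row ranged from 79.6 CPM in PLA_34d replicate 1 to 418 CPM in RA_0 replicate 1. In each group the higher library was the same for both rows as for Mylpf. The ratio of the long to the short row had its lowest and highest values within 1 group, 3.41 in RA_0 replicate 1 and 8.70 in RA_0 replicate 2, so no group stood apart in it.

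**Figure D2:**
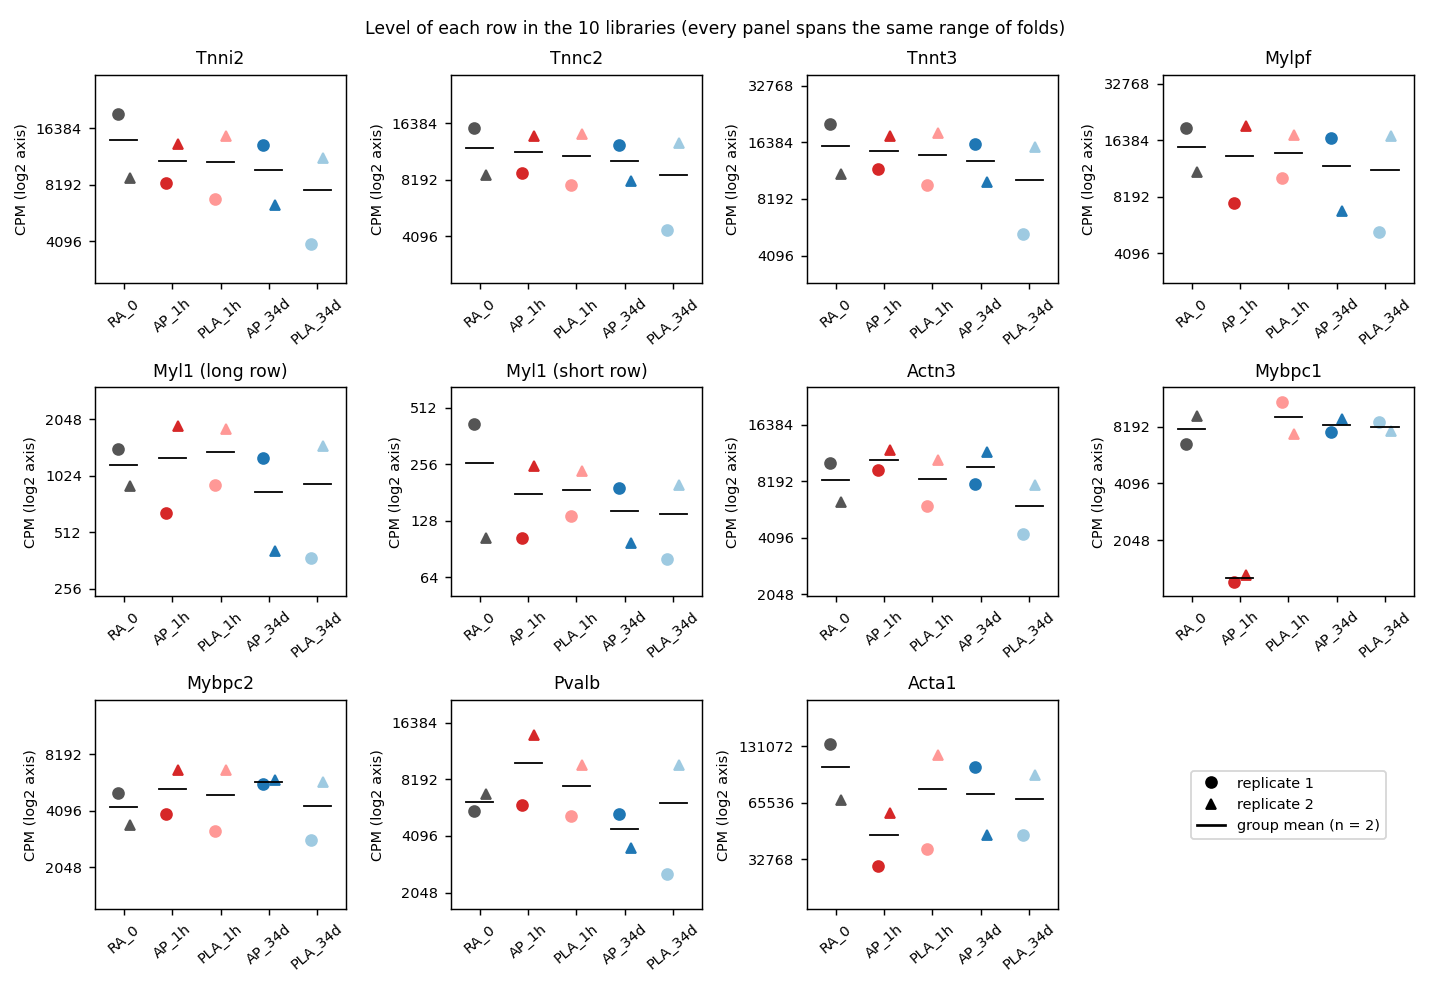
CPM (y axis, log2 scale) of each of the 11 rows in the 5 groups (x axis), with circles for replicate 1, triangles for replicate 2 and a line at the mean of the 2 libraries. Mybpc1 is low in both AP_1h libraries, at 1228 and 1339 CPM, while in the panels of the troponins and light chains the replicates of each group lie far apart and the groups overlap.

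Acta1, skeletal alpha-actin, stood at 134964 and 68102 CPM in RA_0, 30415 and 58013 CPM in AP_1h, 37333 and 118115 CPM in PLA_1h, 101481 and 44439 CPM in AP_34d, and 44268 and 92680 CPM in PLA_34d. Both AP_1h libraries lay below both RA_0 libraries, with means of 44214 ± 19514 and 101533 ± 47278 CPM (SD, n = 2 each). The fitted difference was -1.19 ± 1.48 on the log2 scale (SE), with an adjusted p of 0.864 by limma. Relative to Tnnc2, Acta1 was lowest in the AP_1h libraries, at 3.41 and 4.12, with PLA_1h replicate 1 next at 4.88 and the other libraries between 5.48 and 9.97. Its coding sequence is close to that of cardiac actin, Actc1, and how reads of such paralogs were divided is not given in the sources used here. The window before its start (GRCr8 chr19:68784195-68784444, minus strand) is shown because it was the only one of the group with a CArG box. The CArG box lies 94 bases and the TATA box 29 bases before the start.
Acta1: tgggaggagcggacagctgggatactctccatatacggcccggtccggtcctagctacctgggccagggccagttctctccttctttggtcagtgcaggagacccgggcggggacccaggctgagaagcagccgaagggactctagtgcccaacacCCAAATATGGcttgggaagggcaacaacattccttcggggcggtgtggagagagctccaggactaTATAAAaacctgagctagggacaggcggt

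Actn3, the alpha-actinin of fast fibre Z-discs, stood at 10303 and 6347 CPM in RA_0, 9385 and 12019 CPM in AP_1h, 6067 and 10712 CPM in PLA_1h, 7962 and 11687 CPM in AP_34d, and 4320 and 7809 CPM in PLA_34d. Both AP_34d libraries were above both PLA_34d libraries. In AP_34d, replicate 2 was the higher one, whereas replicate 1 was the higher one for troponins and light chains. Actn3 over Tnnc2 accordingly peaked in AP_34d replicate 2, at 1.44, and was lowest in PLA_34d replicate 2, at 0.606.

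Pvalb, parvalbumin, stood at 5545 and 6844 CPM in RA_0, 6025 and 14053 CPM in AP_1h, 5246 and 9836 CPM in PLA_1h, 5369 and 3555 CPM in AP_34d, and 2569 and 9782 CPM in PLA_34d. Both AP_34d libraries lay below those of RA_0 and of AP_1h. The smallest gap between these groups was narrow, 5369 against 5545 CPM. Pvalb over Tnnc2 ranged from 0.360 in RA_0 replicate 1 to 0.998 in AP_1h replicate 2.

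Mybpc1 and Mybpc2, the isoforms of myosin binding protein C named slow and fast, differed in their pattern. Mybpc1 stood at 6682 and 9390 CPM in RA_0, 1228 and 1339 CPM in AP_1h, 11126 and 7493 CPM in PLA_1h, 7695 and 8986 CPM in AP_34d, and 8666 and 7777 CPM in PLA_34d. Both AP_1h libraries were far below the other 8, the lowest of which was 4.99 times the higher AP_1h value, while those 8 spanned 1.66-fold. Mybpc2 stood at 5101 and 3440 CPM in RA_0, 3958 and 6726 CPM in AP_1h, 3193 and 6782 CPM in PLA_1h, 5655 and 5941 CPM in AP_34d, and 2867 and 5807 CPM in PLA_34d. It had the narrowest span of the 11 rows, 2.37-fold, and was not low in AP_1h. Mybpc2 over Mybpc1 was therefore highest in the AP_1h libraries, at 3.22 and 5.02, and lay between 0.287 and 0.905 in the other 8.

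The windows before the starts of these 2 genes are shown because they encode the isoforms of 1 protein named slow and fast. Of the pair, only Mybpc1 was low in both AP_1h libraries. They lie at GRCr8 chr7:24903374-24903623 for Mybpc1 and chr1:104154102-104154351 for Mybpc2, both on the minus strand.
Mybpc1: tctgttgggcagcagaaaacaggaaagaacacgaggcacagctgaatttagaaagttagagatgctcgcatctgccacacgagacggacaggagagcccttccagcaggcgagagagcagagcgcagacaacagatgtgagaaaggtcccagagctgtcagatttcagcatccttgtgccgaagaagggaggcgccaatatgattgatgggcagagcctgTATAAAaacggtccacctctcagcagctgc
Mybpc2: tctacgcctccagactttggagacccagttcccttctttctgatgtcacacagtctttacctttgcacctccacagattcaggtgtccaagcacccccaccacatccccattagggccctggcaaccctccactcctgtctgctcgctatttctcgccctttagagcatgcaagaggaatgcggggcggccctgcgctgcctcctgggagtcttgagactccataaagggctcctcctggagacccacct
The Mybpc1 window held a TATA box 30 bases before the start and 4 E-boxes (CANNTG, the motif of the MyoD family), and the Mybpc2 window held no TATA box and 1 E-box. Windows were found for 9 of the 10 genes, 10 windows in all, but not for Tnnt3. An E-box stood in 9 of the 10 windows, against 65.5% of all 33469 windows of that length. A TATA box stood in 4 of 10 (12.9% of all windows), a CArG box in 1 (1.50%) and a MEF2 site in 1 (2.96%). Overlaps between motifs were allowed, and both strands were searched.

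AP_1h was set against RA_0 to ask what differed in tissue taken 1 h after acupuncture. The member that stood out was Mybpc1, with means of 1283 ± 78.8 CPM in AP_1h and 8036 ± 1915 CPM in RA_0 (SD, n = 2 each), 6.26-fold lower. The fitted difference was -2.63 ± 0.61 on the log2 scale (SE), with an adjusted p of 0.233 by limma, so it was not called. limma called 0 of the 11 rows (0.0292% of all tested transcripts), and 1 row, Mybpc1, had an unadjusted p under 0.05 (8.89% of all). Mybpc1 ranked 67 of 10259 by p. It met the study's rule of an unadjusted p under 0.05 and a 2-fold change, with a mean of at least 1 CPM, as did 6.12% of transcripts. Here and below the cutoffs of this rule are applied to the limma fit of log2(CPM + 1). The study itself applied them to limma-voom on counts after its own filter. limma-voom and edgeR called 0 rows, with adjusted p of 0.160 and 0.175 for Mybpc1. DESeq2 called Mybpc1 alone, with an adjusted p of 3.15e-11 (1.62% of transcripts called), and so did limma without the mean trend, at 0.0488 (0.039%).

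The other 10 rows had a median difference between AP_1h and RA_0 of -0.05 on the log2 scale, ranging from -1.19 for Acta1 to 0.58 for Pvalb, beside 0.002 for the median of all tested transcripts. Of them 3 were higher and 7 lower. Over all 11 rows the median was also -0.05, and leaving out 1 library moved it between -0.64, without AP_1h replicate 2, and 0.36, without RA_0 replicate 1. The libraries of the 2 groups did not overlap for 2 of the 11 rows, Mybpc1 and Acta1, against 41.6% of all tested transcripts. Both were lower in AP_1h, as were 21% of all. For Tnnc2 and Tnnt3 the fitted differences were -0.05 ± 0.85 and -0.05 ± 0.90 (SE). With errors this wide a difference of 1 unit on the log2 scale was not detectable for them.

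The comparison of AP_1h with PLA_1h asked how acupuncture differed from placebo at the same hour. Mybpc1 was 7.25-fold lower in AP_1h, against a PLA_1h mean of 9309 ± 2569 CPM (SD, n = 2), with a fitted difference of -2.83 ± 0.61 (SE) and an adjusted p of 0.481 by limma. It ranked 18 of 10259 by p. limma called 0 rows (0% of all) and 1, Mybpc1, had an unadjusted p under 0.05 (4.04% of all) and met the study's rule (2.62% of all). DESeq2 called Mybpc1 (adjusted p = 7.65e-13, 0.388% of transcripts called), whereas edgeR and limma-voom did not, at 0.343 and 0.275. Mybpc1 was also the only row whose libraries did not overlap, against 30.6% of transcripts. The other 10 rows had a median difference of 0.08, from -0.66 for Acta1 to 0.40 for Actn3.

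The comparison of PLA_1h with RA_0 asked what differed under placebo at the same hour. Mybpc1 differed by 0.20 ± 0.61 (SE), with an adjusted p of 1.00 by limma. None of the 11 rows was called by limma (0% of all), edgeR, limma-voom or DESeq2, 0 had an unadjusted p under 0.05 (2.59% of all), 0 met the study's rule (1.67% of all), and in 0 did the libraries not overlap (29.4% of all). The other 10 rows had a median difference of -0.13.

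By 34 days of acupuncture Mybpc1 stood at 8340 ± 913 CPM (SD, n = 2), 0.07 ± 0.61 from RA_0 on the log2 scale (SE). Against AP_1h it was 6.50-fold higher, with a fitted difference of 2.70 ± 0.61 (SE) and an adjusted p of 0.584 by limma. limma called 0 rows in AP_34d against AP_1h (0% of all), with 1, Mybpc1, at an unadjusted p under 0.05 (5.35% of all), which also met the study's rule (3.34% of all). DESeq2 called it (adjusted p = 2.44e-11, 0.444% of transcripts called), and edgeR and limma-voom called 0 rows. The libraries did not overlap for 2 rows, Mybpc1 higher and Pvalb lower at -1.07 ± 0.82 (SE), against 33.1% of transcripts.

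At 34 days no row was called by limma, edgeR, limma-voom or DESeq2 in AP_34d or PLA_34d against RA_0 or against each other, nor in PLA_34d against PLA_1h, and 0 rows had an unadjusted p under 0.05 in these 4 comparisons. The share of all transcripts called by limma was 0% in each, and the share at an unadjusted p under 0.05 was 4.77%, 3.2%, 5.47% and 2.96%. The study's rule was met by 0 rows in each, against 2.82%, 2.42%, 3.57% and 2.1% of all. In PLA_34d all 10 rows other than Mybpc1 were lower than in RA_0, with a median of -0.60, and all 11 rows were lower than in PLA_1h, with a median of -0.48. Both medians rest on PLA_34d replicate 1: without it they were 0.03 and 0.20 over the 11 rows. In PLA_34d the libraries overlapped with those of RA_0 and of PLA_1h for all 11 rows, against 31% and 27.2% of all transcripts that did not. In AP_34d against RA_0, 2 rows did not overlap (32.3% of all), Mybpc2 higher at 0.47 ± 0.68 and Pvalb lower at -0.50 ± 0.82 (SE). In AP_34d against PLA_34d, 1 row did not overlap (31% of all), Actn3, higher at 0.73 ± 0.74 (SE) with an adjusted p of 0.930 by limma.

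Whether acupuncture differed from placebo by another amount at 34 days than at 1 h was tested as an interaction. For Mybpc1 it was 2.85 ± 0.87 on the log2 scale (SE), with an adjusted p of 1.00 by limma, and DESeq2 called it at 2.92e-05 (0.214% of transcripts called). limma called 0 rows in the interaction and 0 in the test of any difference among the 5 groups (0% of all in both), in which Mybpc1 ranked 63 with an adjusted p of 0.620. At an unadjusted p under 0.05 Mybpc1 was the only row in both, beside 4.05% of all transcripts in the interaction and 4.98% among the 5 groups. In the latter test DESeq2 called Mybpc1 as the only one of the 11 rows (2.48% of transcripts called).

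**Figure D3:**
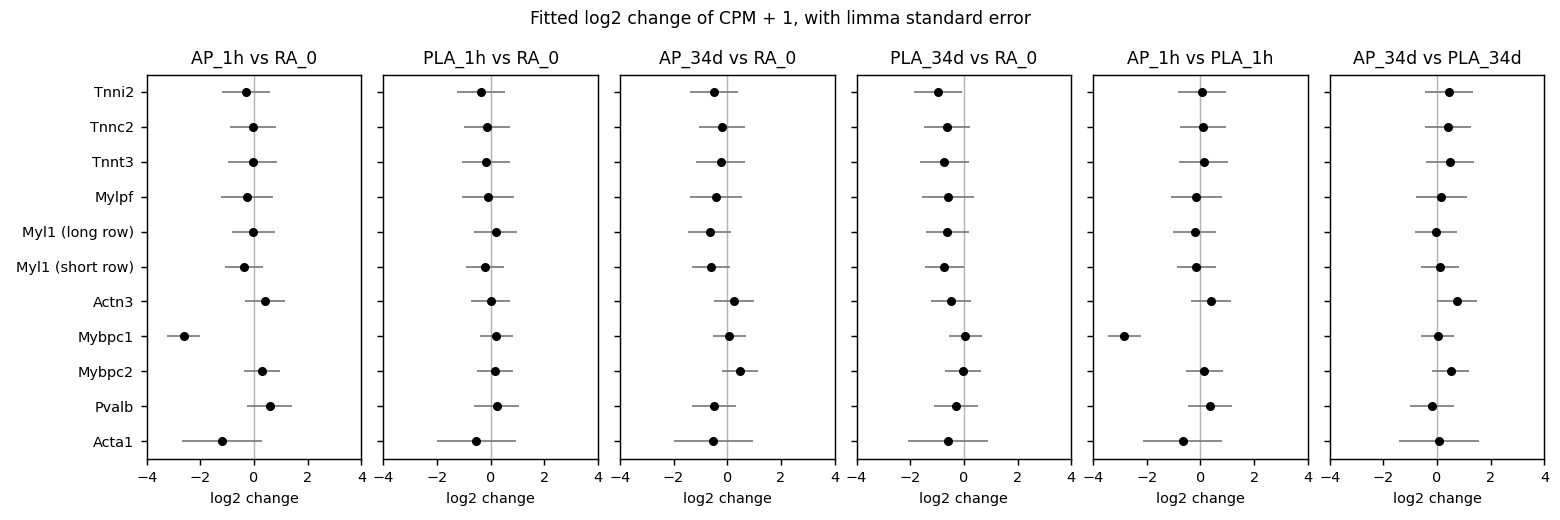
Fitted log2 change (x axis) of each of the 11 rows (y axis) in 6 comparisons, with bars for the limma standard error. Mybpc1 lies at -2.63 in AP_1h against RA_0 and at -2.83 in AP_1h against PLA_1h, and the bars of most other rows cross 0.

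Spread within groups and between groups was also described, from the same values as the test over the 5 groups, so it is no further evidence. For Tnni2 the SD of the log2 level within groups was 0.80 and the SD of the 5 group means 0.35. For Mybpc1 these were 0.26 and 1.21, and it was the only row with the larger value between groups. The share of all tested transcripts with a larger value between groups was not computed. The largest difference between replicates was in PLA_34d for 7 of the 11 rows, and for 9 of the 11 rows the lowest value of all came from PLA_34d replicate 1. The summed level of the 11 rows was lowest there, at 82262 CPM, and next lowest in AP_1h replicate 1, at 88475 CPM. These 2 libraries also had the highest summed level of leukocyte markers, 874 and 471 CPM against 100.1 to 226 CPM in the others. Cd74 gave 680 and 442 CPM of these sums. Of the 10 rows of the 6 leukocyte genes 2 passed the filter, and all 5 rows of the defining marker Ptprc were at 0 in every library, though transcripts of 1 gene that overlap lose the reads they share. The part of leukocytes in the low values was not tested.

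Each fast gene was then set against its slow or cardiac partner within the same library. Tnni2 over Tnni1 stood at 13.2 and 10.7 in RA_0, 112 and 142 in AP_1h, 19.5 and 109 in PLA_1h, 15.2 and 45.7 in AP_34d, and 3.62 and 106 in PLA_34d. Both AP_1h libraries were high and both RA_0 libraries low, while each of the other groups held 1 lower and 1 much higher library. Tnnc2 over Tnnc1, Tnnt3 over Tnnt1 and Mylpf over Myl2 followed the same order of libraries closely, and from RA_0 to AP_1h their geometric means differed 11.2-fold, 11.3-fold and 12.9-fold. Both PLA_1h libraries also lay above both RA_0 libraries in these 3 ratios, by 4.54-fold, 4.70-fold and 5.96-fold, and so did both AP_34d libraries, by 2.95-fold, 2.57-fold and 3.23-fold, while PLA_34d overlapped with RA_0. These comparisons share the RA_0 libraries. Actn3 over Actn2 was 5.42-fold higher in AP_1h than in RA_0 and the long row of Myl1 over Myl3 11.1-fold higher, without overlap. In PLA_1h these ratios were 1.45-fold and 6.77-fold higher than in RA_0, also without overlap, while the groups at 34 days overlapped with RA_0. Lack of overlap is common with 2 libraries a group. Against RA_0, 41.6% of single transcripts did not overlap in AP_1h, 29.4% in PLA_1h and 32.3% in AP_34d. The share among ratios of genes was not computed. Acta1 over Actc1 did not follow, at 1954 and 112 in AP_1h against 839 and 1118 in RA_0. Tnni1 and Tnni2 had fitted differences of unequal size, and whether these differ from each other was not tested. Tnni1 stood at 1472 and 828 CPM in RA_0 and at 74.7 and 94.6 CPM in AP_1h, 13.6-fold lower by the means, with a difference of -3.70 ± 1.05 (SE) and an adjusted p of 0.296 by limma, whereas Tnni2 differed by -0.30 ± 0.89 (SE).

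Outside AP_1h the levels of Mybpc1 and Tnni1 went apart. Tnni1 was down to 107 CPM in PLA_34d replicate 2, 136 CPM in PLA_1h replicate 2 and 140 CPM in AP_34d replicate 2, libraries in which Mybpc1 stood at 7777, 7493 and 8986 CPM. Mybpc1 over Tnni1 therefore ranged from 4.54 in RA_0 replicate 1 to 72.7 in PLA_34d replicate 2. Tnnt1 over Tnni1 kept between 1.00 and 1.58. Not every slow or cardiac partner was low where Tnni1 was, since Actn2 stood at 2525 CPM in PLA_1h replicate 2 and 1622 CPM in replicate 1. Between RA_0 and AP_1h the means differed 6.26-fold for Mybpc1 and 13.6-fold for Tnni1, and whether these 2 differences differ was not tested.

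**Figure D4:**
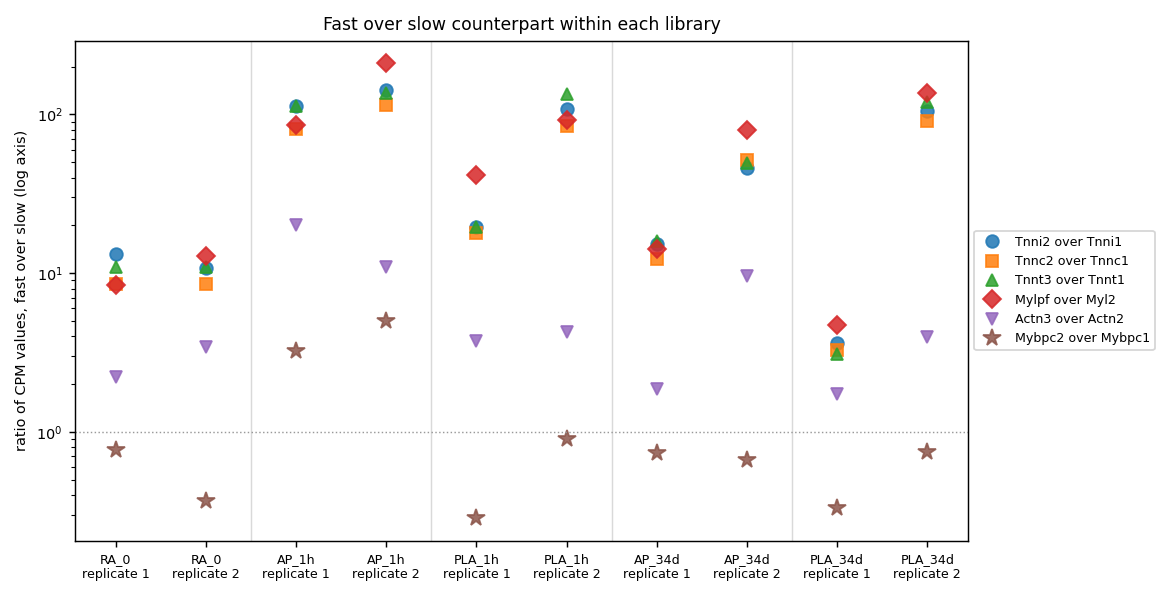
Ratio of the CPM of a fast gene to that of its slow or cardiac counterpart (y axis, log scale) in each of the 10 libraries (x axis). For the troponins and regulatory light chains the ratio lies between 80.4 and 209.7 in both AP_1h libraries and between 8.47 and 13.2 in both RA_0 libraries, and Mybpc2 over Mybpc1 is highest in the AP_1h libraries, at 3.22 and 5.02.

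Among the most abundant genes of the muscle lists, those nearest to Mybpc1 over the 10 libraries were 2 myosin heavy chains, the motors of the thick filament. The Pearson r of the log2 levels was 0.91 with Myh1, the heavy chain of type IIx fibres, and 0.83 with Myh2, that of type IIa. It was -0.37 with Myh4, that of the fastest, type IIb, fibres. Myh1 stood at 36269 and 25920 CPM in RA_0 and 6070 and 10230 CPM in AP_1h, and no other library was under 21230 CPM. Its difference between AP_1h and RA_0 was -1.96 ± 0.97 (SE), with an adjusted p of 0.615 by limma. Tpm2, beta-tropomyosin of the thin filament, and Mb, myoglobin, were also lowest in the 2 AP_1h libraries, with r of 0.72 and 0.65. So were Actn2, Myh7 and Myl3 from the slow fibre list, with r of 0.66, 0.58 and 0.53. Ckm and Des, the creatine kinase and desmin of muscle, were not. The heavy chain genes resemble each other in sequence, and how shared reads were divided among them is not known. Each point shares its library and scaling with the others. Over the 8 libraries without AP_1h the r of Mybpc1 was -0.32 with Myh1 and -0.32 with Myh2. It was -0.71 with Tpm2, -0.50 with Mb, -0.73 with Actn2, 0.006 with Myh7 and -0.56 with Myl3. The likeness therefore rests on the 2 AP_1h libraries. In bulk tissue, fewer fibres of a type and less RNA per fibre cannot be told apart. Nor can a difference between groups be told from one between the pieces taken, since the muscle is not named.

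The remaining likeness among the genes is given as a description over 10 libraries. Without Mybpc1 the rows had a median r of 0.77 with each other over 45 pairs, from 0.27 to 1.00, and the 3 fast troponins 0.97 to 1.00. Actn3 and Acta1 gave the lowest value. Mybpc1 had r between -0.47 and 0.31 with the other rows, and between -0.09 and 0.66 with the slow and cardiac counterparts. Tnni1, Tnnc1, Tnnt1 and Myl2 had r of 0.95 to 1.00 among themselves. Over all 7 counterparts, 21 pairs, r ran from 0.15 to 1.00, with the low values from Actc1, at 0.15 to 0.39. Between members and counterparts r ran from -0.58 to 0.79, the highest being Acta1 with Actn2, and Actc1 reached 0.66 with Mylpf.

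**Figure D5:**
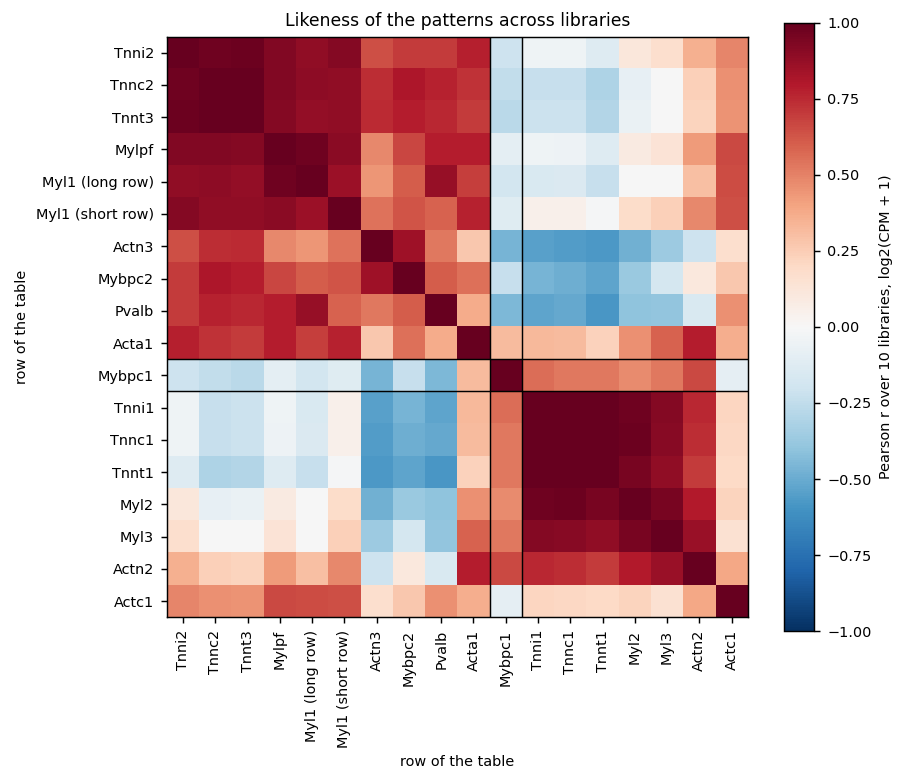
Pearson r over the 10 libraries (colour, from -1 in blue to 1 in red) between the log2 levels of the 11 rows and of 7 slow or cardiac counterparts, which stand on both axes in the same order. The troponins and light chains form 1 red block, the counterparts from Tnni1 to Actn2 another, and Mybpc1, between the lines, is pale against the first.

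Of 5043 transcripts with a mean of at least 20 CPM, the 8 most like the mean profile of the members were Mrps30, Cox7c, Thap4, Vdac2, Apoo, Tmod4, Mrpl35 and Ndufb2, with r from 0.97 down to 0.95. Tmod4, a tropomodulin that caps thin filaments in skeletal muscle, ranged from 606 CPM in PLA_34d replicate 1 to 1441 CPM in RA_0 replicate 1. Mrps30, Cox7c, Vdac2, Apoo, Mrpl35 and Ndufb2 encode mitochondrial proteins. The 4 least alike were RGD1561065 (r = -0.95), Zfp36l2 (-0.95), Pik3r1 (-0.94) and Arpc1b (-0.93).

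Other muscle genes were read from lists. The slow fibre list of 13 genes, with 14 tested rows, includes Mybpc1 and Actn2, whose levels departed from Tnni1 in some libraries. All 14 were lower in AP_1h than in RA_0, with a median of -3.16. Of them 11 had an unadjusted limma p under 0.05 (8.89% of all transcripts) and 0 were called (0.0292% of all). The list was chosen with earlier results of these data known. Its genes Tnni1, Tnnc1, Tnnt1 and Myl2 had r of 0.95 to 1.00 among themselves, so these rows are not independent. In PLA_1h against RA_0 the median was -2.11 with 12 of 14 lower, 3 had an unadjusted p under 0.05 (2.59% of all), and 10 did not overlap (29.4% of all), and at 34 days it was -1.46 under acupuncture and -1.20 under placebo. The 11 tested rows of other fast fibre genes had medians of 0.13, -0.23, -0.24 and -0.30 in the same 4 comparisons, with 0 called. Other thin filament genes, 13 tested rows, had medians of -0.11, -0.24, -0.24 and -0.41, with 0 called, and those shared by all fibres, 5 tested rows, had -0.63, -0.19, -0.09 and -0.59.

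Markers of other cell types in the muscle piece are given as the range of their summed level over the 10 libraries. Keratinocyte markers, 3 of 5 of which are in the table, were near 0, at 1.76 to 6.11 CPM. Adipocyte markers ranged from 291 to 1026 CPM, fibroblast and tendon markers from 934 to 3583 CPM, Schwann cell markers from 96.9 to 439 CPM, endothelial markers from 52.3 to 132 CPM, smooth muscle markers from 61.7 to 145 CPM and red blood cell markers from 212 to 575 CPM. Genes of regenerating muscle ranged from 1237 to 2360 CPM, with 1399 and 1573 CPM in AP_1h, the lowest sums after PLA_34d replicate 1. Of their 6 rows, 4 were higher and 2 lower in AP_1h than in RA_0, with a median of 0.78, 4 had an unadjusted p under 0.05 (8.89% of all) and 0 were called, the smallest adjusted p by limma being 0.191, for Myh3, the embryonic myosin heavy chain, which was lower. In PLA_1h against RA_0 their median was 1.14, with 2 at an unadjusted p under 0.05 (2.59% of all). In AP_1h replicates 1 and 2 the adipocyte sums were 417 and 459 CPM and the fibroblast and tendon sums 3237 and 1949 CPM. Schwann cell sums were 142 and 99.1 CPM there, and smooth muscle sums 114 and 91.1 CPM. Some of these lay close to an end of the range, such as 99.1 CPM for Schwann cells and 3237 CPM for fibroblast and tendon. AP_1h replicate 2 was lowest for endothelium, and both were near the low end for red blood cells, at 214 and 213 CPM. The part of these cells in the results was not tested.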

How the data were processed

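Muscle beneath the skin around the stimulated points was excised, and its RNA was extracted in 1 batch, made into TruSeq libraries and sequenced on a HiSeq 2000. Per the labels, the authors trimmed reads with cutadapt 1.2.1, aligned them to rn4 with Bowtie2 2.1.0 and counted them per transcript with HTSeq 0.5.4p3. In its intersection-nonempty mode, reads that 2 overlapping transcripts share are dropped. Whether counting used strand is not given in the sources used here; no member row overlaps a transcript of another gene, which was not checked for other genes named. What the authors deposited is a signal for each transcript: CPM scaled with TMM factors from edgeR 3.4.2. They were whole multiples of 1 read's worth, within 0.01 reads, for 100% of values, so reads could be recovered.

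Values were tested as log2(CPM + 1), a scale that understates changes of low transcripts. The filter asked for 1 CPM or more in each library of any 1 group. With limma 3.58.1 (R 4.3.3), group means were fitted to all 10 libraries and 10259 transcripts, with eBayes and a mean trend, and p-values were adjusted after Benjamini-Hochberg over all of them. An adjusted p under 0.05 counted as a call. An exact permutation test of 2 against 2 libraries cannot go below 0.333 and was not used. Alternatives were edgeR 4.0.16, DESeq2 1.42.0 and limma-voom on recovered reads, pseudocounts of 0.25 and 4 CPM, other filters and scalings, a fit to the compared groups only, eBayes without the trend, the replicate number as a block, and fits without each library. The fit was tested on simulated data.

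Ratios and correlations are descriptions. The named genes are all members, their slow or cardiac partners, at most 3 of the most abundant genes of each list, and the 8 most and 4 least similar transcripts. Ptprc, and the comparison of Mybpc1 with list genes, were singled out after their values were seen. The members and lists were chosen with earlier results of these data known. Promoter windows are from RefSeq, GRCr8; no coordinates were converted between builds.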

Additional observations from a re-analysis of the deposited data

How the results depend on the processing

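Under 26 alternatives, of which 10 left out 1 library each, the count of called rows differed from 0 in 6 of 258 values. It was 1, Mybpc1, under DESeq2 in AP_1h against RA_0, in AP_1h against PLA_1h, in AP_34d against AP_1h, in the interaction and in the test over all 5 groups, and 1 without the mean trend in AP_1h against RA_0. The cause was not tested. Over all alternatives the log2 difference of Mybpc1 ranged from -2.87 to -1.82 in AP_1h against RA_0, with adjusted p from 3.15e-11 to 0.887, from -3.12 to -2.29 in AP_1h against PLA_1h and from 2.11 to 2.81 in AP_34d against AP_1h. No other row passed the threshold, the smallest adjusted p being 0.362. Scaling to the 5 tested rows shared by all fibres gave the lowest size in the first comparison, -1.82, and moved the median of the 11 rows there from -0.05 to 0.76, while it moved the median of all transcripts by 0.73. The sign of 86 of 99 differences of single rows changed under some alternative, while Mybpc1 kept its direction in the 3 comparisons of groups with AP_1h.

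Leaving out 1 library moved the median of the 11 rows between -1.38 and 0.034 in PLA_34d against RA_0, between -1.24 and 0.20 in PLA_34d against PLA_1h, and between -0.35 and 1.01 in AP_34d against PLA_34d, with the extremes set by the PLA_34d libraries. It moved it between -0.64 and 0.36 in AP_1h against RA_0, -0.50 and 0.30 in PLA_1h against RA_0, -0.79 and 0.08 in AP_34d against RA_0, -0.48 and 0.55 in AP_1h against PLA_1h, and -0.52 and 0.20 in AP_34d against AP_1h, so the sign of this median rests on single libraries in all 8 comparisons. The labels do not say whether the replicate numbers pair the samples. Over 10 pairs of groups the deviations of same-numbered libraries had r from -0.46 to 0.45, over 0.1 in 4. These values cannot decide it, since both signs occur and any pairing could be partial. A replicate block changed no call, and Mybpc1 in AP_1h against RA_0 had an adjusted p of 0.257 with it. With 2 libraries a group and depths of at least 5371687 reads, the spread between libraries, not counting error, limits these results.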
